A study of Homo sapiens with 4 samples.

Results

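The HOX cluster genes are homeobox transcription factor genes that lie in 4 clusters, HOXA on chromosome 7, HOXB on chromosome 17, HOXC on chromosome 12 and HOXD on chromosome 2. The members described here were chosen by a rule on names, with earlier results of these data known. They are genes whose symbol is HOXA, HOXB, HOXC or HOXD followed by a number. Antisense genes were left out, and each member is measured by a probe set with exactly 1 gene symbol. This gave 27 of the 18417 genes measured and 27 of the 39 HOX genes in RefSeq: 1 HOXA gene (HOXA2), all 10 HOXB genes, 7 HOXC genes and all 9 HOXD genes. The other 12 were not analysed here, among them HOXA10 and HOXA11, and HOXC4 and HOXC6, which share a probe set. Each member had 1 probe set.

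HOX proteins bind DNA through a homeodomain and give cells their position along the body axis. Genes of a cluster lie in the order of their number, the paralog group from 1 to 13, and in embryos low numbers are used towards the head and high numbers towards the tail. In the female tract, the Müllerian duct is patterned by the high numbers of the HOXA cluster, with HOXA10 and HOXA11 in the uterus. HOX proteins bind DNA together with PBX, MEIS and PREP cofactors, retinoic acid switches on the low-numbered genes, and Polycomb and Trithorax proteins keep the clusters silent or active.

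Gene expression was measured on 4 arrays, 1 for each of Ishikawa siEfp, Ishikawa siControl, HEC-1A siEfp and HEC-1A siControl. Both are established lines from endometrial adenocarcinomas, Ishikawa (3H12 No.74) well differentiated and positive for ERα, the estrogen receptor, and HEC-1A moderately differentiated and ERα-negative. All cells were grown in DMEM with serum and transfected with an siRNA, and siEfp targets Efp, the ubiquitin ligase encoded by TRIM25. For Ishikawa the methods give the duplex siEfp #A and 48 h of treatment, and for the HEC-1A arrays neither is given in the sources used here.

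The values are log2 signals made by the authors with RMA, and the median signal over genes was between 6.25 and 6.34 on the 4 arrays. TRIM25 had log2 signals of 7.96 in Ishikawa siEfp and 9.42 in Ishikawa siControl cells, and of 7.93 in HEC-1A siEfp and 9.50 in HEC-1A siControl cells, so siEfp cells of either line held less of it. ESR1, the ERα gene, was higher in Ishikawa by its mean over probe sets that differed in size (limma adjusted p = 0.000154). The first had signals of 8.22 and 8.58 in Ishikawa against 5.02 and 4.32 in HEC-1A. The other had signals of 5.08 and 5.24 in Ishikawa against 4.53 and 4.59 in HEC-1A. PGR, the other marker of estrogen receptor status, was not called and lay between 3.22 and 3.26 on all 4 arrays. Of 8 epithelial markers, 6 were higher in Ishikawa, with CDH1, E-cadherin, at 9.62 and 10.22 in Ishikawa against 3.74 and 4.07 in HEC-1A, while VIM, vimentin, was at 6.95 and 7.04 in Ishikawa against 11.47 and 11.71 in HEC-1A. VIM stands in the list of 7 stromal markers, of which COL1A1 was higher in Ishikawa and the other 5 were not called. Of 4 endothelial and 5 immune markers, 1 each was called, VWF at 5.21 and 5.18 in Ishikawa against 4.17 and 4.49 in HEC-1A, and CD68 at 5.58 and 5.98 against 7.26 and 6.97. The defining immune marker PTPRC lay between 2.90 and 3.17 on all 4 arrays, near the low end of the signals. The part of these markers in the HOX differences was not tested.

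HEC-1A cells had the higher signal of HOXA2 and HOXB2, and Ishikawa cells that of a run of neighbouring HOXB genes from HOXB5 to HOXB8. The arrays of a line differ in siRNA, so each gene was fitted with line and siRNA as additive terms (limma, over all genes), and a gene was called at a Benjamini-Hochberg adjusted p under 0.05. Of the 27 HOX genes 9 were called, 6 higher in Ishikawa (HOXB5, HOXB6, HOXB7, HOXB8, HOXB13 and HOXD10) and 3 higher in HEC-1A (HOXA2, HOXB2 and HOXC13), and 18 were not called. Of all genes 35.2% were called, 17.0% higher in Ishikawa and 18.3% higher in HEC-1A, so the share of HOX genes called, 33.3%, was near that of the arrays as a whole. At a called difference of at least 2-fold there were 4 HOX genes, HOXA2, HOXB2, HOXB5 and HOXB8, or 14.8%, beside 12.0% of all genes. The 2 arrays of each line did not overlap for 15 HOX genes, 55.6%, beside 62.7% of all genes.

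**Figure D1:**
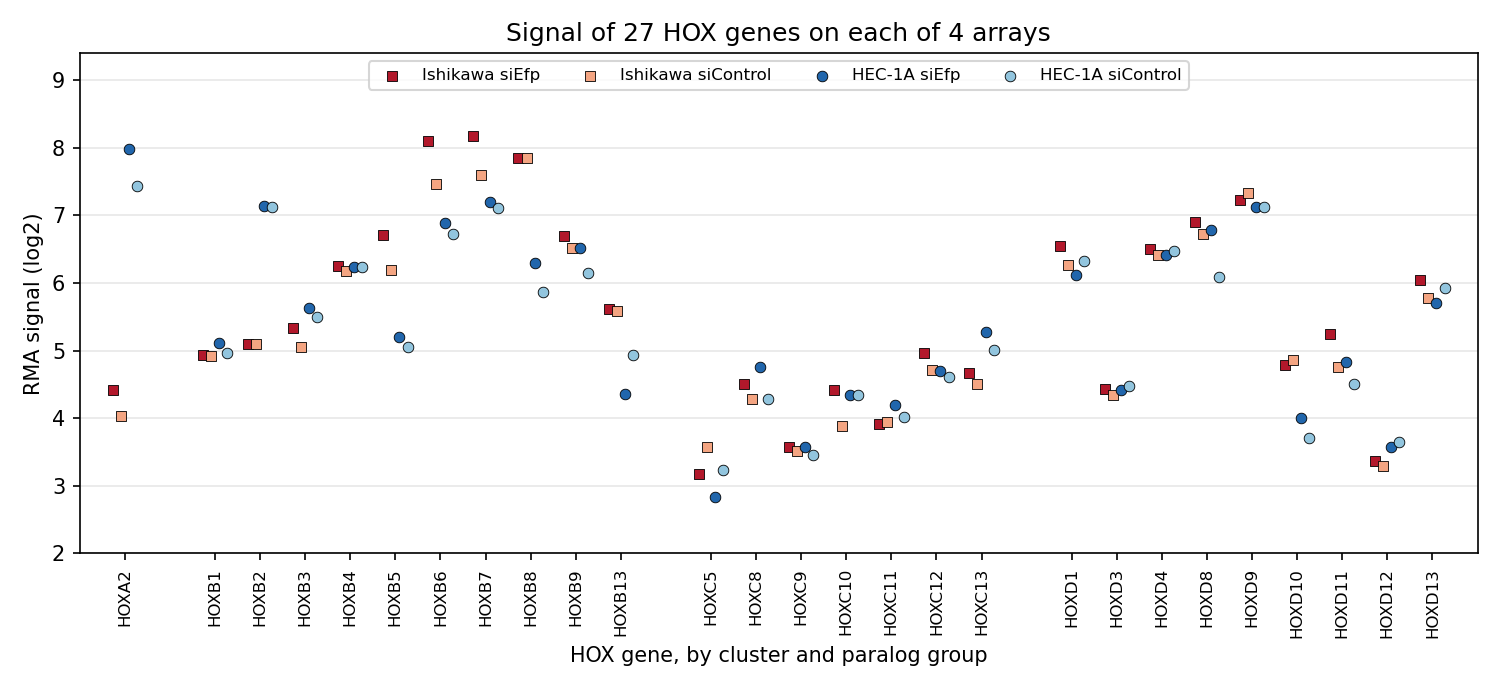
Log2 signal after RMA (y axis) for the 27 HOX genes (x axis, by cluster and paralog group) on each array, squares for Ishikawa and circles for HEC-1A, with the siEfp array in the darker shade. Signals are to be compared between arrays within a gene, and HOXA2 shows the widest gap between the lines, with 4.42 and 4.03 in Ishikawa against 7.98 and 7.43 in HEC-1A.

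HOXA2, which in mouse gives the second branchial arch its identity, had log2 signals of 4.42 in Ishikawa siEfp and 4.03 in Ishikawa siControl cells, against 7.98 in HEC-1A siEfp and 7.43 in HEC-1A siControl cells. Both HEC-1A arrays were high and both Ishikawa arrays were low, below the median signal of their arrays. The difference, Ishikawa minus HEC-1A, was -3.48 ± 0.12 (SE, 2 arrays per line, limma adjusted p = 8.96e-06), or 11.2-fold lower in Ishikawa. No detection calls were used here, so a fold that rests on dim signals, as this one does in Ishikawa, is a size on the RMA scale and not an exact one. The difference was -3.56 between the siEfp arrays and -3.40 between the siControl arrays. HOXA-AS2, a noncoding gene of the same cluster, lay on the same side, with 3.67 and 3.44 in Ishikawa siEfp and siControl cells and 4.56 and 4.38 in HEC-1A siEfp and siControl cells, all 4 signals below the median (-0.91 ± 0.12, adjusted p = 0.00162).

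The region before the start of HOXA2 is shown because HOXA2 had the largest difference between the lines of the 27 HOX genes. It is the RefSeq sequence of chr7:27102634-27102933 (GRCh38.p14, minus strand), from 250 bases before to 50 bases after the start. Capitals mark the matches to TGATTNAT, a site bound by PBX with HOX proteins, and to TGACAG, the core bound by MEIS and PREP proteins.
HOXA2 promoter: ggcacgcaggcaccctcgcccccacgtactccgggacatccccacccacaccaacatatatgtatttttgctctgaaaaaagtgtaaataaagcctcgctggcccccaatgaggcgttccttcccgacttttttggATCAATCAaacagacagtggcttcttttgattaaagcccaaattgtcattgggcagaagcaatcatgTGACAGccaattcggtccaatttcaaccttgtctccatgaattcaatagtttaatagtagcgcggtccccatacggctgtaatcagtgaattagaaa
Searched on both strands, TGATTNAT was found in 2.82% and TGACAG in 15.8% of 35116 RefSeq promoters of this length. Of 11 HOX genes with a promoter in the table, HOXA2 and HOXD11 held the first, and HOXA2 and HOXD4 the second. HOXA2 also held 4 matches to CCAAT, present in 34.6% of promoters, and 4 to TAAT, the core bound by many homeodomains, present in 50.2%. A GC share of 46.3% in this window stood beside a median of 58.7% over all promoters. These are matches of letters and do not show binding.

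HOXB2, a gene of the hindbrain in mouse, had signals of 5.10 and 5.09 in Ishikawa siEfp and siControl cells, against 7.14 and 7.13 in HEC-1A siEfp and siControl cells. The difference of -2.04 ± 0.12 (adjusted p = 5e-05), 4.10-fold lower in Ishikawa, was the same in siEfp and siControl cells, -2.04 in each. HOXB1, which sets the identity of a hindbrain segment in mouse, differed by -0.11 ± 0.12 (adjusted p = 0.571) and HOXB3, on the same side as HOXB2, by -0.37 ± 0.12 (95% interval -0.66 to -0.07, adjusted p = 0.0619), which was called after a second quantile normalization. HOXB4, known for the expansion of blood stem cells, differed by -0.03 ± 0.12 (adjusted p = 0.906), with signals between 6.17 and 6.25 on the 4 arrays. HOXB3 and HOXB4 overlap in RefSeq, so their signals may hold transcripts of both.

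The next 4 genes of the cluster were higher in Ishikawa. HOXB8, a regulator of myeloid cells, had signals of 7.85 and 7.85 in Ishikawa siEfp and siControl cells, against 6.30 and 5.87 in HEC-1A siEfp and siControl cells. The difference was 1.77 ± 0.15 (adjusted p = 0.000213), or 3.40-fold. HOXB5 had signals of 6.71 and 6.19 in Ishikawa siEfp and siControl cells, against 5.20 and 5.05 in HEC-1A siEfp and siControl cells. It was 2.51-fold higher in Ishikawa (1.33 ± 0.14, adjusted p = 0.000625). For both genes the 2 lines did not overlap.

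The middle pair of the run differed less. HOXB6 had signals of 8.10 and 7.47 in Ishikawa siEfp and siControl cells, against 6.88 and 6.73 in HEC-1A siEfp and siControl cells (0.97 ± 0.15, adjusted p = 0.00321). HOXB7, a gene studied in breast cancer, had signals of 8.18 and 7.60 in Ishikawa siEfp and siControl cells, against 7.20 and 7.11 in HEC-1A siEfp and siControl cells (0.74 ± 0.15, adjusted p = 0.0104). In both genes the gap between the lines was wider in siEfp than in siControl cells, 1.21 against 0.74 for HOXB6 and 0.98 against 0.49 for HOXB7. HOXB9, the next gene, differed by 0.27 ± 0.13 (adjusted p = 0.146), and its lines overlapped. HOXB13, a gene of the prostate that lies apart from the others of its cluster, had dim signals of 5.62 and 5.58 in Ishikawa siEfp and siControl cells, against 4.36 and 4.93 in HEC-1A siEfp and siControl cells (0.95 ± 0.17, adjusted p = 0.00536).

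**Figure D2:**
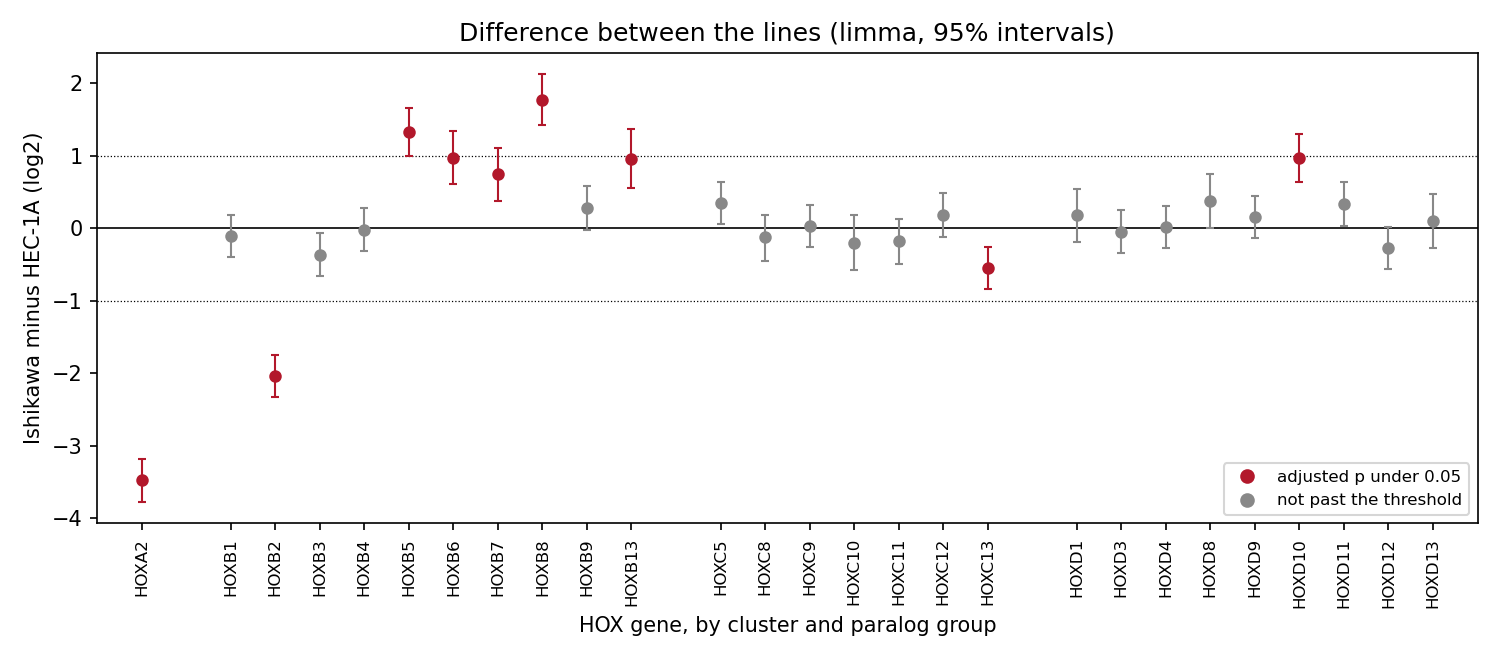
Ishikawa minus HEC-1A (y axis, log2) for each HOX gene (x axis, by cluster and paralog group), with limma's 95% interval. Red points were called and grey points were not, and dotted lines mark 2-fold; HOXA2 and HOXB2 lie below -1, and HOXB5 and HOXB8 above 1.

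Of 7 HOXC genes 1 was called, 14.3% beside 35.2% of all genes and 15.6% of genes below the median signal on every array. It was HOXC13, a gene of hair and nail formation, with signals of 4.67 and 4.51 in Ishikawa siEfp and siControl cells, against 5.27 and 5.01 in HEC-1A siEfp and siControl cells (-0.55 ± 0.12, adjusted p = 0.0136). All 7 stayed below the median signal on every array, between 2.84 and 5.27. The other 6 had differences from -0.20 for HOXC10, a gene of the lumbar spine and hind limb, to 0.34 for HOXC5, which overlaps HOXC4 and HOXC6.

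Of 9 HOXD genes 1 was called, 11.1% beside 35.2% of all genes and 15.6% of genes below the median signal on every array. At least the median signal on an array was reached by 4 of the 9. The gene called was HOXD10, a gene of lumbar motor neurons, with signals of 4.78 and 4.86 in Ishikawa siEfp and siControl cells, against 4.0 and 3.71 in HEC-1A siEfp and siControl cells (0.96 ± 0.14, adjusted p = 0.00247). Its signals were dim, below the median on every array. The other 8 lay between -0.27 for HOXD12 and 0.37 for HOXD8. HOXD9 had signals of 7.23 and 7.33 in Ishikawa siEfp and siControl cells and of 7.12 and 7.13 in HEC-1A siEfp and siControl cells, a difference of 0.15 with a 95% interval from -0.14 to 0.44. HOXD4, which overlaps HOXD3, differed by 0.02 with an interval from -0.28 to 0.31. HOXD13, the gene of digit formation that is mutated in synpolydactyly, differed by 0.10 with an interval from -0.27 to 0.47. The median difference was 0.51 over the HOXB cluster, -0.13 over HOXC and 0.15 over HOXD, beside -0.01 over all genes.

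HOXA2, HOXB2, HOXB5, HOXB8 and HOXD10 were called on all arrays and also with each array left out in turn. Without the Ishikawa siEfp array, or without the HEC-1A siEfp array, 5 were called, and HOXB6, HOXB7, HOXB13 and HOXC13 were lost. Without the HEC-1A siControl array 6 were called, with HOXB6, HOXB7 and HOXC13 lost, and without the Ishikawa siControl array 7, with HOXB13 and HOXC13 lost. These fits hold fewer arrays and dropped the siRNA term. Their share of all genes called is not given here, so the losses cannot be read as particular to these HOX genes.

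Between siEfp and siControl each of the 27 HOX genes measured stayed within 2-fold in both lines, as nearly all genes on the arrays did. No HOX gene differed by 2-fold between siEfp and siControl in Ishikawa, where 0.939% of all genes did, or in HEC-1A, where 0.375% did. With 1 array per condition these are differences without a replicate check and without a test. In Ishikawa 23 of 27 HOX genes had the higher signal in the siEfp array and 4 the lower, 85.2% higher beside 52.2% of all genes and 60.2% of genes below the median signal on every array. The median difference was 0.16 over the HOX genes and 0.01 over all genes. In HEC-1A 18 were higher and 9 lower in the siEfp array, 66.7% beside 52.1% of all genes, with a median of 0.12 beside 0.01. Both lines had the higher signal with siEfp for 16 genes. After a second quantile normalization 21 genes were higher in Ishikawa and 18 in HEC-1A, and 21 and 17 lay above the median difference of all genes in the values as deposited.

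**Figure D3:**
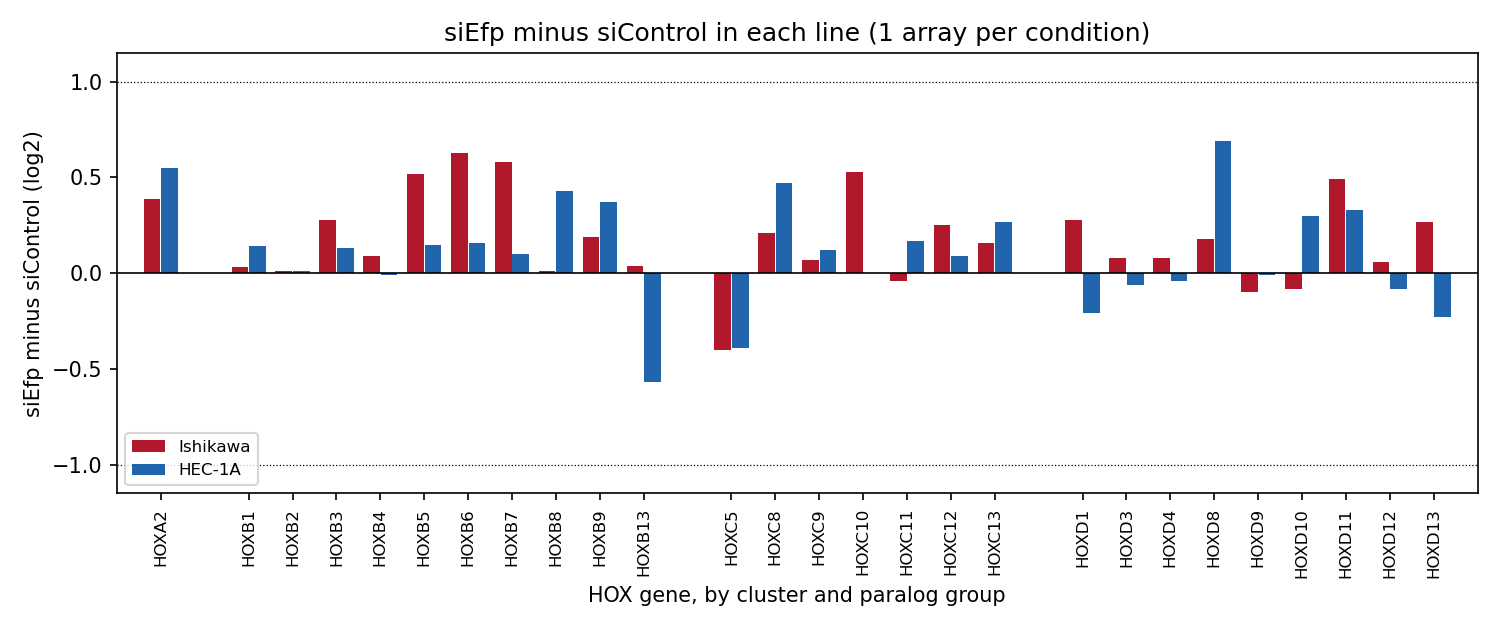
siEfp minus siControl (y axis, log2) of each HOX gene (x axis, by cluster and paralog group), with red bars for Ishikawa and blue bars for HEC-1A, from 1 array per condition. Dotted lines mark 2-fold, and no bar reaches them; HOXB6 in Ishikawa (0.63) and HOXD8 in HEC-1A (0.69) are the longest.

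In Ishikawa the genes furthest from 0 were HOXB6, HOXB7, HOXC10 and HOXB5. HOXB6 was 0.63 higher in siEfp cells on the log2 scale, 1.55-fold, and the only HOX gene at least 1.5-fold higher, a size that 1.49% of all genes reached. HOXB7 was 0.58 higher and HOXB5 0.52 higher, from the signals given above for the lines. In HEC-1A the same 3 genes were 0.16, 0.10 and 0.15 higher. HOXB8, the fourth gene of the run, was 0.01 higher with siEfp in Ishikawa and 0.43 higher with siEfp in HEC-1A. HOXC10 had signals of 4.41 in Ishikawa siEfp and 3.88 in Ishikawa siControl cells, and of 4.35 on both HEC-1A arrays.

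In HEC-1A the genes furthest from 0 were HOXD8, HOXB13, HOXA2 and HOXC8. HOXD8 had signals of 6.90 in Ishikawa siEfp and 6.72 in Ishikawa siControl cells, and of 6.79 in HEC-1A siEfp and 6.09 in HEC-1A siControl cells. In HEC-1A it was 1.62-fold higher with siEfp and the only HOX gene past 1.5-fold, where 1.34% of all genes were at least 1.5-fold higher. HOXB13 was the furthest down, at 0.04 in Ishikawa and -0.57 in HEC-1A. HOXA2 was higher with siEfp in both lines, by 0.39 in Ishikawa and 0.55 in HEC-1A. HOXC8, a gene of the thoracic spine in mouse, had signals of 4.50 in Ishikawa siEfp and 4.29 in Ishikawa siControl cells, and of 4.76 in HEC-1A siEfp and 4.29 in HEC-1A siControl cells. HOXC5 differed by nearly the same amount in both, -0.40 in Ishikawa and -0.39 in HEC-1A, with dim signals between 2.84 and 3.58. No gene differed by 1.2-fold or more in opposite directions in the 2 lines, and differences between the lines in the response could not be tested with 1 array per condition.

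With the 2 lines taken as replicates of 1 effect, no HOX gene passed an adjusted p under 0.05 for siEfp against siControl (limma, line as a block), where 0.163% of all genes did. At an unadjusted p under 0.05 there were 6 HOX genes, HOXA2, HOXB6, HOXC5, HOXC8, HOXD8 and HOXD11, 22.2% beside 12.0% of all genes. HOXA2 had the smallest p of the HOX genes (0.47 ± 0.12, limma adjusted p = 0.226). HOXD11, a gene of the forearm, was 0.49 higher with siEfp in Ishikawa and 0.33 in HEC-1A (0.41 ± 0.12 over both lines, limma adjusted p = 0.276). No HOX gene was called under limma with an intensity trend either. Without the line as a block none was called, but the differences between the lines then enter the residual spread. That fit therefore bears little on the HOX genes.

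Of 9 HOX cofactor genes listed 7 were measured, with a median size of the line difference of 1.1 (log2) beside 0.27 over the HOX genes. Of the 7, 5 were called, 3 higher in Ishikawa and 2 higher in HEC-1A, 71.4% beside 35.2% of all genes. The share was 50.9% among all genes with at least the median signal on an array, as 5 of the 7 had. At 2-fold or more 4 were called, 57.1% beside 12.0% of all genes. MEIS1 and MEIS2, which encode homeodomain cofactors of the TALE class that bind DNA beside HOX and PBX proteins, lay on opposite sides. MEIS1 had signals of 9.73 and 9.63 in Ishikawa siEfp and siControl cells, against 6.19 and 5.34 in HEC-1A siEfp and siControl cells, 15.1-fold higher in Ishikawa (3.92 ± 0.19, limma adjusted p = 2.38e-05). MEIS2 had signals of 3.67 and 3.87 in Ishikawa siEfp and siControl cells, against 7.25 and 6.74 in HEC-1A siEfp and siControl cells, lower in Ishikawa by about 9.35-fold, a size that rests on dim Ishikawa signals (-3.22 ± 0.19, adjusted p = 4.53e-05).

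PBX3 was lower in Ishikawa, with a difference of -1.12 ± 0.18 (adjusted p = 0.00364), with signals of 6.93 and 6.13 in Ishikawa siEfp and siControl cells, against 7.71 and 7.60 in HEC-1A siEfp and siControl cells. PKNOX1, the gene of the cofactor PREP1, was higher in Ishikawa by 1.07 ± 0.13 (adjusted p = 0.00126), and PKNOX2 by 0.42 ± 0.12 (adjusted p = 0.0348). MEIS3 and PBX4 were not called, with differences of -0.15 and 0.18. Between siEfp and siControl the widest differences of these genes were 0.85 for MEIS1 in HEC-1A, 0.80 for PBX3 in Ishikawa and 0.51 for MEIS2 in HEC-1A, none with a replicate, and no cofactor gene was called for siEfp over both lines.

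**Figure D4:**
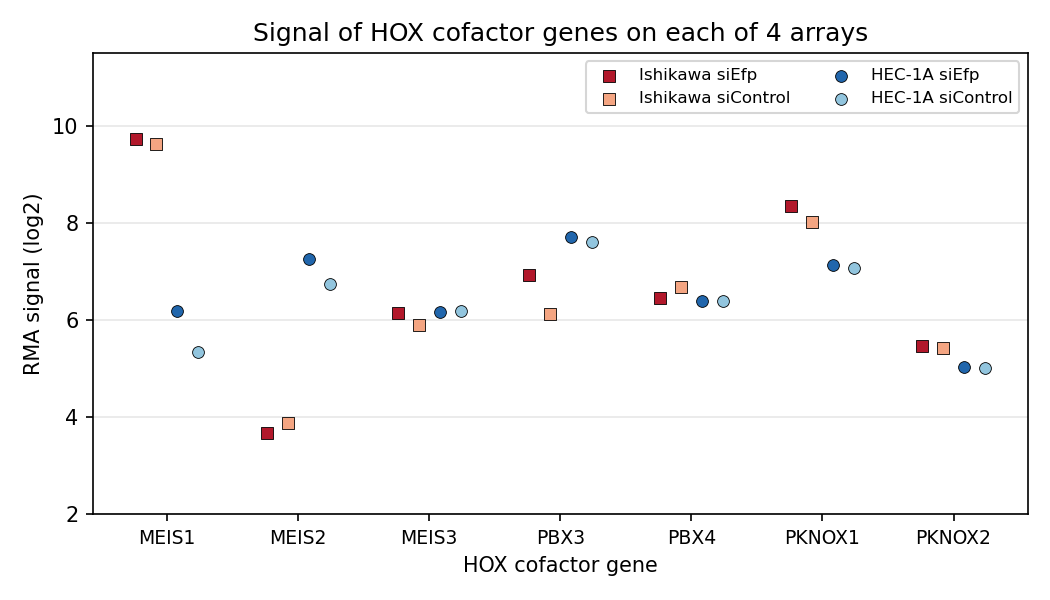
Log2 signal after RMA (y axis) for the 7 measured HOX cofactor genes (x axis) on each array, squares for Ishikawa and circles for HEC-1A, with the siEfp array in the darker shade. MEIS1 is higher in Ishikawa (9.73 and 9.63, against 6.19 and 5.34 in HEC-1A) and MEIS2 lower in Ishikawa (3.67 and 3.87, against 7.25 and 6.74 in HEC-1A).

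The chromatin regulators of the clusters differed by smaller amounts. Of 26 measured Polycomb group genes, which keep HOX genes silent, 7 were called higher in Ishikawa and 7 higher in HEC-1A, and 3 differed by at least 2-fold. The share called, 53.8%, was near the 50.9% of all genes with at least the median signal on an array, as 25 of the 26 had. PHC1, a subunit of a Polycomb repressive complex, was 2.02-fold higher in Ishikawa, while PHC2, its paralog, was 2.64-fold and CBX6, a chromodomain subunit, 2.14-fold higher in HEC-1A. Of 21 Trithorax and MLL group genes, which keep HOX genes active, 3 were called higher in Ishikawa and 8 higher in HEC-1A, 52.4%, again near that share. KDM6A and KDM6B, demethylases that remove the Polycomb mark from histone H3, were 2.19-fold and 2.02-fold higher in HEC-1A, and KMT2A, the MLL methyltransferase, 1.68-fold (limma adjusted p = 0.00111, 0.00103 and 0.00413). DPY30, a subunit shared by the MLL complexes, was 1.55-fold higher in Ishikawa.

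Of 15 retinoic acid pathway genes 3 were called higher in Ishikawa and 3 higher in HEC-1A, 40.0% beside 35.2% of all genes. DHRS3, a retinal reductase that retinoic acid induces, had signals of 7.26 and 8.30 in Ishikawa siEfp and siControl cells, against 5.43 and 5.51 in HEC-1A siEfp and siControl cells (2.31 ± 0.22, adjusted p = 0.000427). ALDH1A1, a retinal dehydrogenase, was 4.81-fold higher in Ishikawa, and CRABP2, a retinoic acid binding protein, 2.66-fold. Between siEfp and siControl, DHRS3 and CRABP2 differed by -1.04 and -1.01 in Ishikawa and by -0.08 and -0.42 in HEC-1A, from 1 array per condition. RDH10, which makes retinal, was 1.54-fold higher in HEC-1A. RARB, a receptor gene that retinoic acid induces in many cells, was not called and lay between 3.47 and 3.62 on the 4 arrays.

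Of 14 CDX and flanking genes 1 was called higher in Ishikawa and 2 higher in HEC-1A, 21.4% beside 35.2% of all genes. CALCOCO1, on the chromosome of the HOXC cluster, was 2.32-fold higher in HEC-1A, HIBADH, on that of HOXA, 1.40-fold higher in HEC-1A, and LNPK, on that of HOXD, 1.32-fold higher in Ishikawa. EVX1, beside the HOXA cluster, differed by -0.01, EVX2, beside HOXD13, by -0.22 and PRAC1, between HOXB9 and HOXB13, by 0.03, and none of the 3 was called.

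The clusters also hold microRNA genes, and of 6 measured noncoding genes HOXA-AS2 was the only one called. That share, 16.7%, stood beside 35.2% of all genes. It was near the 15.6% of genes below the median signal on every array, as all 6 were. The mature forms of the microRNAs of the HOXB cluster are shown because miR-196a pairs with the HOXB8 transcript, one of the genes that differed, and is known to direct its cleavage in mouse. They are RefSeq sequences (GRCh38.p14) with the seed, bases 2 to 8, in capitals.
hsa-miR-10a-5p: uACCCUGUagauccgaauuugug
hsa-miR-196a-5p: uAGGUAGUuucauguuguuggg
The seeds differ. The first lies at chr17:48579904-48579926 (minus strand), in MIR10A near HOXB4. The second is made from 2 genes, MIR196A1 between HOXB9 and HOXB13, at chr17:48632532-48632553 (minus strand), and MIR196A2 in the HOXC cluster, at chr12:53991762-53991783 (plus strand). The probe sets are named for the hairpin genes and do not measure the mature microRNAs. MIR196A1 had signals of 4.46 and 4.92 in Ishikawa siEfp and siControl cells and of 4.55 and 4.56 in HEC-1A siEfp and siControl cells (0.13 ± 0.15, limma adjusted p = 0.575). MIR10A lay between 2.48 and 2.57 and MIR196A2 between 3.52 and 3.61 on the 4 arrays, near the low end of the signals.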

How the data were processed

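Log2 signals of 4 arrays were deposited, which the submitters' processing notes credit to Expression Console and RMA. Its version and the build were not given in the sources used. By design, RMA brings arrays to a common distribution and shrinks differences of dim probe sets. The methods name the Human Exon ST array, but the annotation used here is the Human Gene ST array's.

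Among 33297 probe sets, 19460 had 1 gene symbol, 1754 several and 12083 none. Those with 1 symbol were averaged per gene, giving 18417 genes. Gene IDs of 19429 were found in RefSeq (GRCh38.p14), and 0 symbols changed. RefSeq gave gene order, overlaps, promoters and microRNAs, and probe sets are given no coordinates. Paralogs of like sequence can share probes.

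All genes were fitted with limma 3.58.1 (R 4.3.3), line and siRNA as terms, which left 1 residual degree of freedom, to which empirical Bayes added 5.54. Nothing says that the arrays of a line came from separate cultures, so p-values do not measure the spread between cultures. With 1 residual degree of freedom per gene, they rest mostly on a spread pooled over all genes on these arrays. The fit was tested on simulated data with 200 genes changed between the lines. Of 50 genes at each log2 size, 2 were recovered at 0.5, 40 at 1, and 50 at 2 and at 3. There were 13 false calls. A gene not called may thus still differ by a small amount. Python 3.11.15, numpy 2.4.6, pandas 2.3.3 and matplotlib 3.10.9 served for the rest. The number of arrays limits the precision.

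The members, lists and alternatives were chosen with earlier results of these data known. Values on every array are given for HOX genes called between the lines at 2-fold or more and for the 4 furthest from 0 with siEfp in each line, and for HOXC13, HOXD9, HOXD10 and a few others chosen after their values were seen. Of each of 8 further lists, drawn from general knowledge, up to 4 members at each end of the line difference are named, and RARB, EVX1, PRAC1, PAX8, MEIS3, PBX4 and the microRNA genes were added after their values were seen. Alternatives were an intensity trend, dropping the other term, other thresholds, a filter on dim genes, the brightest probe set per gene, a second quantile normalization, centring, 1 siRNA only and leaving out each array.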

Additional observations from a re-analysis of the deposited data

How the results depend on the processing

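The 9 HOX genes called between the lines remained 9 without the siRNA term and with the probe set of the highest mean signal, and all 9 were kept with an intensity trend (10 called), an adjusted p under 0.1 (12) and a second quantile normalization (11). Requiring 2-fold left 4 of them, 2 higher in Ishikawa. Among genes with at least the median signal 6 were called, since HOXB13, HOXC13 and HOXD10 were not tested there. In the main fit the share called among such genes was 54.5% for HOX genes and 50.9% over all genes. The share of all genes called between the lines under the other settings is not given here, so these counts describe the HOX genes alone. Leaving out each array, with the siRNA term dropped, gave 5 to 7 genes, 3 to 5 of them higher in Ishikawa; these fits hold fewer arrays. HOX genes past 1.5-fold in either direction for siEfp were 1 in Ishikawa and 1 in HEC-1A, where none were past 2-fold. The median line difference of the HOXB cluster was 0.86 over its 6 members with at least the median signal, a subset that a gene can enter through the line where it is high. That of HOXC was -0.01 on the siControl arrays, 0.00 on the siEfp arrays and -0.16 after the second normalization, and that of HOXD -0.05 on the siControl arrays. The cause of these shifts was not tested. No HOX gene called between the lines changed direction under the other normalization, on the siControl or the siEfp arrays alone, or after centring. With 1 array per condition, siEfp and siControl could be paired only through the line, as the fit with line and siRNA as terms does. With an array left out and line dropped as a term, siEfp gave 0 HOX genes called and 0 at an unadjusted p under 0.05 (limma), with each of the 4 arrays; those fits also gave 0 calls among all genes, so they bear little on the HOX genes. The 16 HOX genes below the median signal are measured least well.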

Other observations

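HOXA10 and HOXA11 were not analysed here, but genes known as their targets in the endometrium were measured. Of 9 such genes 3 were called higher in Ishikawa and 2 higher in HEC-1A (limma), 55.6% beside 35.2% of all genes. The share was 50.9% of all genes with at least the median signal on an array, as 5 of the 9 had, and 15.6% of the rest. EMX2, a homeobox gene of the Müllerian duct that HOXA10 represses, had signals of 9.07 and 8.57 in Ishikawa siEfp and siControl cells, against 4.51 and 4.38 in HEC-1A siEfp and siControl cells, 20.7-fold higher in Ishikawa (4.37 ± 0.14, adjusted p = 6.86e-06). LIF, a cytokine of implantation, lay on the other side, with 4.52 and 4.71 in Ishikawa siEfp and siControl cells, against 6.84 and 7.27 in HEC-1A siEfp and siControl cells, and ITGB3, the β3 integrin, was 1.82-fold higher in HEC-1A. FKBP4 was 1.69-fold and PLA2G4A, a phospholipase, 1.73-fold higher in Ishikawa. The other 4, IGFBP1, PRL, WNT4 and FST, were not called. Between siEfp and siControl, ITGB3 and PLA2G4A differed by -0.96 and -0.77 in Ishikawa and by -0.24 and -0.13 in HEC-1A. Each condition had 1 array.

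Of 15 transcription factor genes of the Müllerian tract, EMX2 again among them, 4 were called higher in Ishikawa and 4 higher in HEC-1A, 53.3% beside 35.2% of all genes. Of these 15 genes 8 had at least the median signal on an array, where the share of all genes was 50.9%. SOX17 was 5.04-fold and TWIST1 2.25-fold higher in Ishikawa, and GATA2 was 2.70-fold and PAX2 2.14-fold higher in HEC-1A. PAX8, a marker of the tract, had a difference of 0.38 and was not called (adjusted p = 0.0876).

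The probe set shared by HOXC6 and HOXC4, which enters no comparison above, had signals of 4.24 and 4.0 in Ishikawa siEfp and siControl cells and of 4.31 and 4.21 in HEC-1A siEfp and siControl cells.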
